A study of Mus musculus with 18 samples.

Results

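Marcksl1, Igfbpl1, Dpysl5, Tubb2b, Dcx, Sox11, Sox4, Neurod1 and Neurod2 are 9 genes of newly born and maturing neurons, taken by gene symbol with all of their probes out of 19057 named genes on an Illumina mouse bead array. They have 29 of the 45281 probes. Hippocampal RNA of C57BL/6J mice was measured on 18 arrays in 4 groups. In every group pups were fed by hand for 14 days, from postnatal day 14 to day 28 (P28), with either vehicle or a daily 20 mg/kg of cannabis extract. The vehicle was an emulsion of sweet condensed milk and olive oil. The P28 groups, vehicle and cannabis with 4 arrays each, were killed 70 to 80 min after feeding began. The adult groups, vehicle and cannabis with 5 arrays each, carry an age of P56 in the labels. Adults had also gone through behavioural testing and a phencyclidine challenge, with 2 weeks for washout, so that age and this history cannot be told apart. The labels leave unsaid if arrays come from different animals, and p-values then cover only array-to-array spread, possibly technical.

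In the hippocampus, new granule neurons are made from stem cells in the subgranular zone of the dentate gyrus, and this production continues after birth while becoming slower with age. A young granule neuron passes through a transient state in which it migrates, extends an axon and dendrites, and expresses proteins that rebuild its cytoskeleton. Doublecortin (Dcx) binds and stabilises microtubules and is the usual label of these cells. Tubb2b is a beta-tubulin of developing neurons, Dpysl5 (CRMP5) acts in growth cones, and Marcksl1 binds actin at the membrane. Igfbpl1 encodes a secreted protein related to the binding proteins of insulin-like growth factors. Sox4 and Sox11 are transcription factors of the SoxC family, which switch on neuronal genes as progenitors leave the cell cycle. Neurod1 and Neurod2 are basic helix-loop-helix factors, the first needed for granule neurons to form and survive, the other kept on in mature excitatory neurons.

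Levels are the authors' log2 intensities, normalized so that every array has the same distribution (median 6.86) and not background-subtracted, which compresses fold changes. A probe was tested if it exceeded 6.98, the level of unexpressed probes plus 3 SD, on at least 4 arrays, which kept 18217 probes. Of the 29 probes of the 9 genes, 19 were kept and 9 exceeded that level on no array. Each gene had at least 1 kept probe, and the brightest on average is used below unless another is named. It was above background on 18 of 18 arrays for 8 genes, and on 10 for Igfbpl1. "Called" means an adjusted p under 0.05 in limma, Benjamini-Hochberg over all kept probes. More than 1 probe was kept for 6 genes. In whole-tissue RNA, fewer cells of a type and less RNA per cell cannot be told apart.

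Some arrays stood apart. Arrays numbered 4 and 5 differed from arrays 1 to 3 across the groups in 4308 of the 18217 kept probes, although arrays within a group correlated at 0.981 to 0.995. Of the 9 genes 2 differed, a share near that of all kept probes. Sox4 was lower on arrays 4 and 5 by 0.23 ± 0.06 (log2 difference ± SE; limma adjusted p = 0.0145) and Neurod1 was higher there by 0.32 ± 0.06 (adjusted p = 0.00132). The adult cannabis arrays 2 and 4 stood apart together from the other 3 of their group in most of the 9 genes. They did not do so in Neurod1 or Neurod2, and in Sox4 only array 2 did. Contrasts of the adult cannabis group are also given without arrays 2 and 4. Hippocampal identity was measured by marker lists: 12 of 14 pyramidal and 6 of 12 granule neuron markers exceeded background on all 18 arrays, as did 8 of 12 markers of neighbouring cortex and thalamus.

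In vehicle mice, Marcksl1 and Igfbpl1 were lower in adults than at P28, and 7 of the 9 genes had a log2 difference below 0. Marcksl1 fell by 1.40 ± 0.26 on the log2 scale (2.64-fold, limma adjusted p = 0.0154). Igfbpl1 was estimated as at least 1.52-fold lower (adjusted p = 0.0195), a bound because adult levels were at background. That bound leaves out sampling error. The 2 genes called compare with 1.07% of all 18217 probes called in this contrast, 0.812% called lower. Over the 9 genes the median log2 difference was -0.53, and over all probes 0.00572. At an unadjusted p under 0.05 there were 8 of 9 genes, beside 13.5% of all probes. With Igfbpl1 at its bound the median of the 9 was also -0.53. The count of genes called depended on the settings, from 0 to 7 of 9 (with Neurod2, higher in adults, among the counts of 5 to 7), and was 0 without P28 vehicle array 1, and 1 without P28 vehicle array 2, P28 vehicle array 3 or adult vehicle array 4. It was 5 without adult cannabis array 2, 6 without array 4 and 4 without array 5 of that group, which enter this contrast through the shared estimate of the spread. The share of all probes called moved too, from 1.07% to 2.07% without adult cannabis arrays 2 and 4 together.

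The actin-binding gene Marcksl1 lay at log2 levels of 10.23, 9.78, 9.67 and 10.23 on the 4 P28 vehicle arrays. On the 5 adult vehicle arrays it lay at 8.69, 8.36, 8.28, 8.93 and 8.63. The groups did not overlap, and the highest adult array was below the lowest P28 array. The other kept Marcksl1 probe (ILMN_1215632) was not called, at -0.12 ± 0.06 with overlapping groups (limma adjusted p = 0.413). That probe was dim, above background on 2 of 4 P28 vehicle and 0 of 5 adult vehicle arrays. The size of its difference is therefore not known. Igfbpl1 lay at 7.73, 7.78, 7.49 and 7.36 at P28. In adult vehicle mice it lay at 6.84, 6.93, 6.79, 6.78 and 6.81, under the background level on 5 of 5 arrays. The estimate of its difference is therefore only a bound, at least 0.61 on the log2 scale. The bound runs from the P28 mean to the background level and leaves out sampling error. A further Igfbpl1 probe (ILMN_2776554) was also called (limma adjusted p = 0.0425), again with adults at background on 5 of 5 arrays. The same bound on its estimate is at least 0.31 on the log2 scale.

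**Figure D1:**
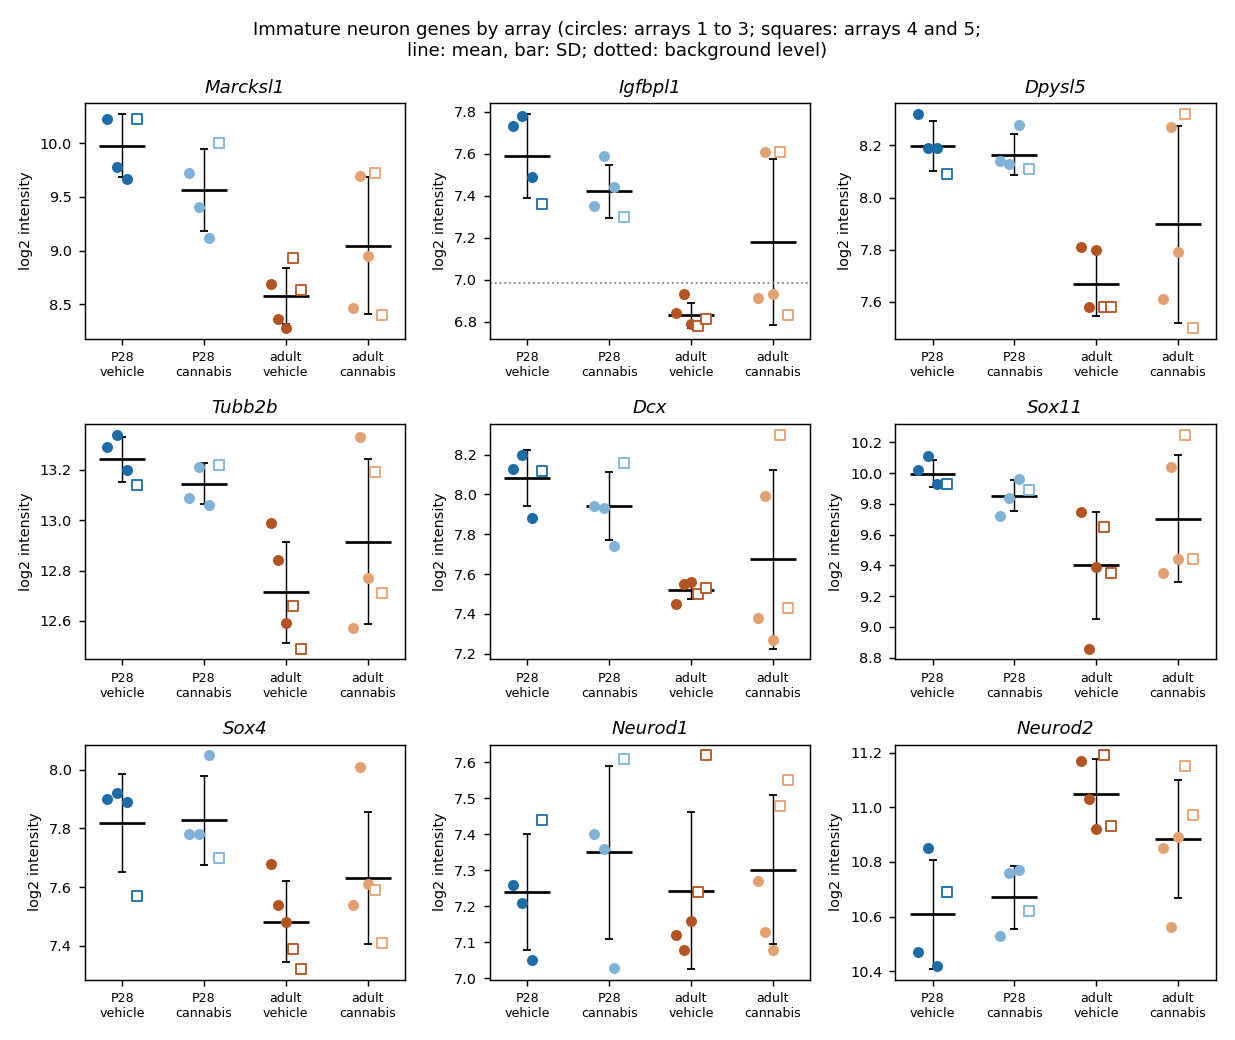
Log2 intensity of each gene's brightest probe (vertical axes) on each of the 18 arrays, by group (horizontal axis), with the mean of each group as a horizontal line and its SD as an error bar. Marcksl1, for example, averaged 9.98 in P28 vehicle and 8.58 in adult vehicle arrays, while adult cannabis arrays ran from 8.40 to 9.72.

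The cytoskeletal genes of migrating and growing neurons had age differences in the same direction that did not pass the test with the brightest probe. Dcx lay at 8.13, 8.20, 7.88 and 8.12 on the P28 vehicle arrays. It lay at 7.45, 7.55, 7.56, 7.50 and 7.53 in adult vehicle mice. The adult levels were tightly grouped (SD 0.04, n = 5) and did not overlap with P28, and the log2 difference was -0.57 ± 0.16 (limma adjusted p = 0.0912). The other kept Dcx probe gave -0.47 ± 0.15 (adjusted p = 0.162). Dpysl5, the growth cone protein, lay at 8.32, 8.19, 8.19 and 8.09 at P28 and at 7.81, 7.58, 7.80, 7.58 and 7.58 in adults, a log2 difference of -0.53 ± 0.13 (adjusted p = 0.0629). Its groups did not overlap either.

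Tubb2b, the tubulin, lay at 13.29, 13.34, 13.20 and 13.14 on the P28 vehicle arrays and at 12.99, 12.84, 12.59, 12.66 and 12.49 on the adult ones. These groups did not overlap, and the log2 difference was -0.53 ± 0.13 (limma adjusted p = 0.0564). Of its other 4 kept probes, ILMN_2825574 was called at -0.65 ± 0.14 (adjusted p = 0.0329). The bright probe ILMN_2588051 was not called, at -0.45 ± 0.11 (adjusted p = 0.0574). The dim probes ILMN_2598715 and ILMN_1221835 gave -0.18 ± 0.07 and -0.03 ± 0.07. Arrays 4 and 5 differed from arrays 1 to 3 by 0.27 ± 0.08 in ILMN_2825574 (limma adjusted p = 0.0254). In ILMN_2588051 they differed by -0.22 ± 0.07 (adjusted p = 0.0259). Tubulin genes are close in sequence, and how far each probe separates them was not tested.

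The transcription factors differed in direction. Sox11 ranged from 9.93 to 10.11 in P28 vehicle mice and from 8.86 to 9.75 in adults, without overlap, with a log2 difference of -0.60 ± 0.18 (limma adjusted p = 0.114). The other kept Sox11 probe gave -0.24 ± 0.09 with overlapping groups (adjusted p = 0.203). Sox4 ranged from 7.57 to 7.92 at P28 and from 7.32 to 7.68 in adults, which overlap, with a difference of -0.34 ± 0.11 (adjusted p = 0.157). Neurod1 ranged from 7.05 to 7.44 and from 7.08 to 7.62, with a log2 difference of 0.00 ± 0.13 (95% interval -0.27 to 0.27). Its only probe was dim, with a mean of 7.24 in both groups, near background, where fold changes are compressed. The interval therefore does not bound the change in Neurod1 RNA. The probe was also higher by 0.32 ± 0.06 on arrays 4 and 5, which were 1 of 4 P28 and 2 of 5 adult vehicle arrays. Neurod2 was higher in adults, from 10.47, 10.85, 10.42 and 10.69 at P28 to 11.17, 11.03, 10.92, 11.19 and 10.93 in adults. Its groups did not overlap, and the log2 difference of 0.44 ± 0.11 missed the threshold (adjusted p = 0.0551). Its other probe gave 0.27 ± 0.23 and differed between arrays 4 and 5 and arrays 1 to 3 by 0.64 ± 0.08 (adjusted p = 0.000113). Across the 9 genes the vehicle groups did not overlap in 7, beside 6.21% of all probes.

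**Figure D2:**
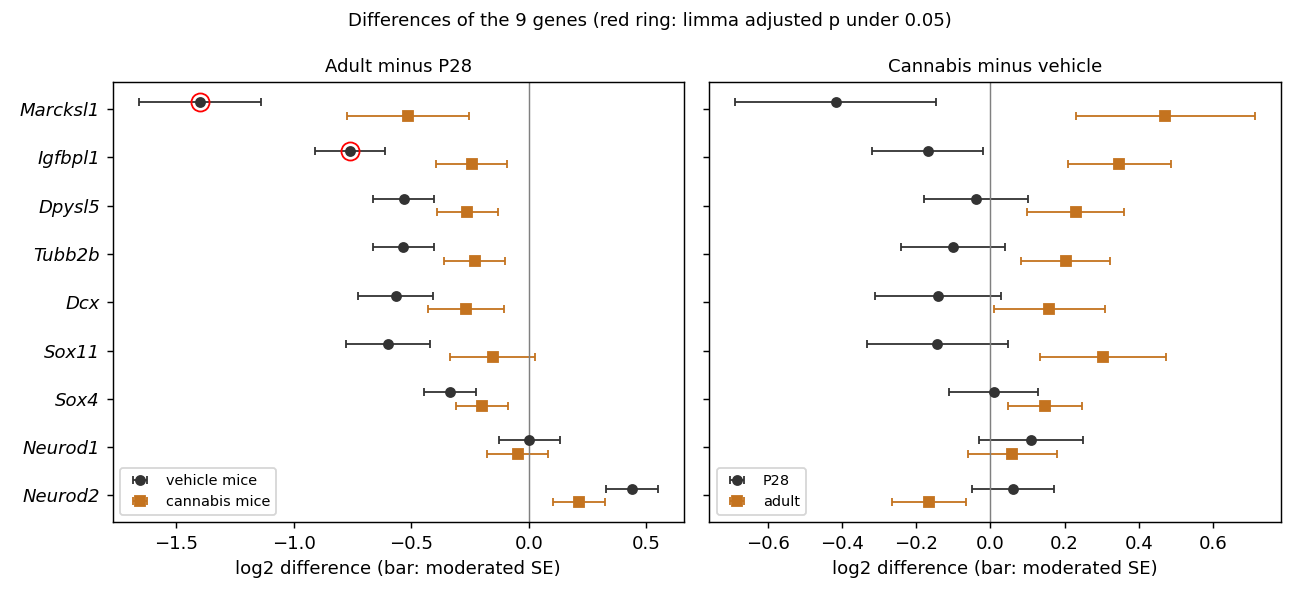
Log2 difference of each of the 9 genes (horizontal axis) in the contrasts of age and of treatment, with the moderated SE as bars. In vehicle mice the age differences run from -1.40 for Marcksl1 to 0.44 for Neurod2, and in cannabis mice from -0.51 to 0.21, and the points of Igfbpl1 that use adult vehicle arrays, where it was at background, are drawn as fitted.

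Promoter windows are shown for the 4 genes with a window that had the smallest p in the vehicle age contrast, so that the start of a gene that was lower in adults (Marcksl1) can be read beside those of genes near the threshold, in either direction (Dpysl5, Dcx and Neurod2). The sequences are from RefSeq (build GRCm38.p6), from 250 bases before to 50 after a transcript start, and 7 of the 9 genes matched, with 8 windows. They lie at chr4:129513331-129513630 (plus strand) for Marcksl1, chr5:30711314-30711613 (plus) for Dpysl5, chrX:143933075-143933374 (minus) for Dcx and chr11:98329596-98329895 (minus) for Neurod2. Capitals mark, on either strand, the E-box CANNTG and its form CAGATG (bound by NeuroD factors), and the SOX cores ACAAAG and AACAAT.
Marcksl1: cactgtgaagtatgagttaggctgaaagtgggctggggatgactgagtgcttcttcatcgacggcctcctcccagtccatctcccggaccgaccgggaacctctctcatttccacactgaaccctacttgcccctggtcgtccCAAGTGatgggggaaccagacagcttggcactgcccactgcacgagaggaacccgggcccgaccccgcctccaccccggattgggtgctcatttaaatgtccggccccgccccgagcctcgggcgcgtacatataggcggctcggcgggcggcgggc
Dpysl5: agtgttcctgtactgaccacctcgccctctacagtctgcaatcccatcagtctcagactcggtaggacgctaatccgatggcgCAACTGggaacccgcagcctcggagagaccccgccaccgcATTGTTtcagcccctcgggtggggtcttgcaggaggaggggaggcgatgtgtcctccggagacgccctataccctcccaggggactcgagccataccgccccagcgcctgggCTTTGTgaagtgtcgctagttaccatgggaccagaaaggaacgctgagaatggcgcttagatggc
Dcx: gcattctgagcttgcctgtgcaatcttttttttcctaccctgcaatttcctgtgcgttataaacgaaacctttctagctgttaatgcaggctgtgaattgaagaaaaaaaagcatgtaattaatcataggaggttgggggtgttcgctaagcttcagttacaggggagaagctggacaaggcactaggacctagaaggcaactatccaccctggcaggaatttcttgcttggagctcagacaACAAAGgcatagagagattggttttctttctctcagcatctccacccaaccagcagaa
Neurod2: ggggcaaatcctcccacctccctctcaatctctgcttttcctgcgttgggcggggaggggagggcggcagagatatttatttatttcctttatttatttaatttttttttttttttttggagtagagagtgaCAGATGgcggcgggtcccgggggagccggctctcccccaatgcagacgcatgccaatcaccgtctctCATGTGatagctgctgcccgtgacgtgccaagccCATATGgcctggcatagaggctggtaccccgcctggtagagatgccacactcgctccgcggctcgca
CANNTG was in 6 of the 8 windows and in 72.3% of all 32851 windows of that length, a share close to that of these genes. CAGATG, which is also counted under CANNTG, was in 1 of 8 (Neurod2; 17.2% of all windows), ACAAAG in 2 (Dpysl5 and Dcx; 18.7%) and AACAAT in 1 (Dpysl5; 10.7%). The other Dcx window, which overlaps the one shown, held none of these. In all, 16 motifs were counted, and the 4 in capitals and the windows shown were chosen with the counts known. Of the rest, CATATG, also counted under CANNTG, was in 3 of 8 windows (Neurod1, Neurod2 and Sox11), beside 3.91% of all windows. CCAAT was in 6 (37.4%), and GGACAG (22.2%) and CACCTG (20.2%) were in 0. No motif was tested. The matches describe letters and are not binding sites.

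In cannabis mice the same age contrast called 0 of the 9 genes, where 0.0274% of all probes (5, all lower) were called. The log2 differences were below 0 for 8 genes, with a median of -0.23. Marcksl1 differed by -0.51 ± 0.26 (limma adjusted p = 0.505), Dpysl5 by -0.26 ± 0.13, Dcx by -0.27 ± 0.16 and Neurod2 by 0.21 ± 0.11. At an unadjusted p under 0.05 there were 0 of 9, beside 10.6% of all probes. The groups overlapped for all 9 genes, where 2.71% of all probes had groups that did not. Choroid plexus markers moved with the contrasts that use the P28 cannabis arrays. With age in cannabis mice 11 of 11 tested were below 0 (median -0.91, 0 called). Their mean log2 level was 7.52 to 9.11 on P28 cannabis arrays, 7.15 to 8.30 on P28 vehicle arrays and 7.10 to 7.54 on adult ones, and with that level as a covariate the count in cannabis mice was 0 and in vehicle mice 2.

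The overlap lay mainly in 2 of the adult cannabis arrays. Marcksl1 lay at 8.47, 9.70, 8.95, 9.72 and 8.40 on arrays 1 to 5 of that group, and at 9.72, 9.41, 9.12 and 10.00 on the P28 cannabis arrays. Arrays 2 and 4 were among the P28 levels and arrays 1, 3 and 5 below them. Dcx lay at 7.38, 7.99, 7.27, 8.30 and 7.43 in adult cannabis mice, and at 7.94, 7.93, 7.74 and 8.16 at P28. Igfbpl1 lay at 6.91, 7.61, 6.93, 7.61 and 6.83, above background on arrays 2 and 4 alone. Dpysl5 lay at 7.61, 8.27, 7.79, 8.32 and 7.50, and Tubb2b at 12.57, 13.33, 12.77, 13.19 and 12.71. In each of these genes arrays 2 and 4 were the highest of the 5, and the SD of the group was 0.45 for Dcx, against 0.04 in adult vehicle mice (n = 5 each). Neurod2 lay at 10.85, 10.56, 10.89, 11.15 and 10.97, lowest on array 2 and highest on array 4.

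To place these arrays, the 7 genes below 0 in vehicle mice (all but Neurod1 and Neurod2, a subset taken after their values were seen) were put on a scale where the adult vehicle mean is 0 and the P28 vehicle mean is 1. The median position of the 7 genes was 1.06 on adult cannabis array 2 and 1.02 on array 4. On arrays 1, 3 and 5 it was -0.09, 0.14 and -0.12. Array 2 was nearer the P28 mean in 7 of 7 genes and array 4 in 6 of 7 (not in Sox4). Arrays 1, 3 and 5 were nearer it in 0 of 7. Over the 191 other probes called with age in vehicle mice, array 2 was nearer P28 in 60.7% and array 4 in 39.3%, against 5.76%, 15.2% and 5.76% on arrays 1, 3 and 5. The P28 cannabis arrays were nearer P28 in 74.9 to 91.6% of these probes. This is a description of 5 arrays, and no label sets arrays 2 and 4 apart.

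**Figure D3:**
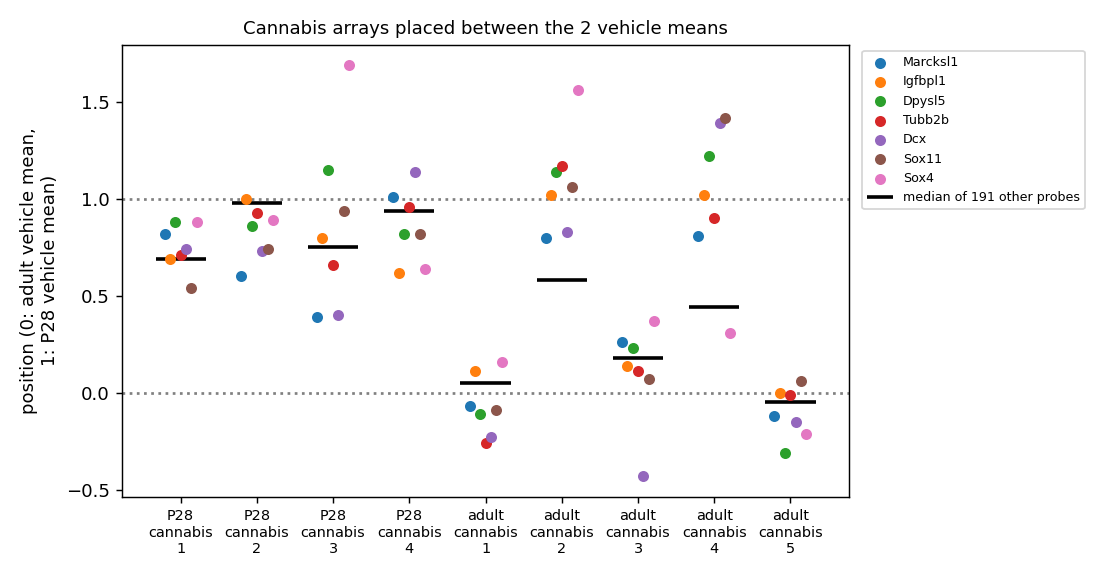
Position of each cannabis array between the adult vehicle mean (0) and the P28 vehicle mean (1) on the vertical axis, for the 7 genes and for the 191 other probes called with age in vehicle mice. Adult cannabis arrays 2 and 4 sit at medians of 1.06 and 1.02 for the genes and at 0.58 and 0.44 for the other probes.

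Without arrays 2 and 4, 5 of the 9 genes were called lower in adult than in P28 cannabis mice (Marcksl1, Igfbpl1, Dpysl5, Tubb2b and Dcx), while the share of all probes called rose from 0.0274% to 1.12%. Dcx then differed by -0.581 on the log2 scale (limma adjusted p = 0.00689) and Marcksl1 by -0.954 (adjusted p = 0.0416). In vehicle mice 7 genes were then called, 6 lower and Neurod2 higher in adults, beside 2.07% of all probes, with the differences unchanged and a smaller estimate of the spread. The arrays were chosen on the levels of these same genes, so these counts are not independent evidence of a change.

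Adult cannabis and adult vehicle mice were compared to see whether feeding in adolescence left a difference, and 0 of 9 genes were called, as were 0% of all probes. At an unadjusted p under 0.05 there was 1 gene of 9, beside 3.55% of all probes. The log2 differences (cannabis minus vehicle) were above 0 for 8 genes, with a median of 0.20. That gene was Igfbpl1 (unadjusted p = 0.0211, limma adjusted p = 1). It was at background on 5 of 5 adult vehicle and 3 of 5 adult cannabis arrays, so that the size of its difference is not known. With Igfbpl1 set at 0.20 on the log2 scale, from the background level to its adult cannabis mean, the median of the 9 stayed 0.20. Marcksl1 differed by 0.47 ± 0.24 (-0.04 to 0.98), Sox11 by 0.30 ± 0.17, Dpysl5 by 0.23 ± 0.13 and Tubb2b by 0.20 ± 0.12. Dcx differed by 0.16 ± 0.15 (-0.16 to 0.47), and Neurod2 by -0.16 ± 0.10. The groups overlapped in all 9 genes, beside 0.362% of all probes whose groups did not. Without arrays 2 and 4 the median was 0.01, with 4 of 9 genes below 0. Marcksl1 then stood at 0.031, and Dcx at -0.155, while Igfbpl1 was at background on all adult arrays left.

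At P28, 0 of 9 genes were called between cannabis and vehicle mice, as were 0% of all probes. At an unadjusted p under 0.05 there were 0 of 9, beside 1.78% of all probes. The groups overlapped in all 9 genes, beside 1.59% of all probes whose groups did not. The log2 differences were below 0 for 6 genes, with a median of -0.10. Marcksl1 differed by -0.42 ± 0.27 (95% interval -0.99 to 0.16), Igfbpl1 by -0.17 ± 0.15, Dcx by -0.14 ± 0.17 (-0.49 to 0.21) and Sox4 by 0.01 ± 0.12. A p above the threshold does not show equal levels. Leaving out P28 cannabis array 3 moved Marcksl1 to -0.269 and Dcx to -0.074, and leaving out P28 vehicle array 2 moved Igfbpl1 to -0.105. In this contrast 11 of 11 choroid plexus markers were above 0 (median 0.67, 0 called).

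Whether the cannabis difference changed with age was tested directly, as the adult difference minus the P28 difference, and 0 of 9 genes and 0% of all probes were called. At an unadjusted p under 0.05 there were 2 genes, beside 2.91% of all probes. Marcksl1 gave 0.89 ± 0.37 (95% interval 0.12 to 1.66, unadjusted p = 0.0256, limma adjusted p = 1). The other was Igfbpl1 (unadjusted p = 0.0221, adjusted p = 1), with no size given because the adult vehicle level was at background. Over the 9 genes the median was 0.30. Without adult cannabis arrays 2 and 4 it was 0.03, and Marcksl1 gave 0.448 ± 0.28 (adjusted p = 1). The same quantity is the age difference in cannabis mice minus that in vehicle mice, so these data do not show that the age difference was smaller in cannabis mice.

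The correlations of the 7 genes within groups rested largely on adult cannabis arrays 2 and 4. The 7 were taken for a shared age difference, which by itself gives correlated levels. Over 18 arrays, which share the group differences and the normalization, Pearson's r between pairs of them ran from 0.53 to 0.93 (median 0.84, 21 pairs). After group means were subtracted it ran from 0.13 to 0.85 (median 0.66), lowest for Sox4 with Marcksl1. Without adult cannabis arrays 2 and 4 the deviations ran from -0.53 to 0.76 (median 0.18), and the levels from 0.60 to 0.92 (median 0.83). The levels of Neurod2 correlated with those of the 7 at -0.63 to -0.35 over 18 arrays, and the deviations of Sox4 and Neurod1 at -0.75. The genes whose level was most like the mean of the 9 standardised genes were Nrm (r = 0.923), Hbb-bt (0.919), Zdhhc12 (0.918), Masp1 (0.916), Nrep (0.911) and Hbb-bs (0.904). Against deviations from the group means they were Kcne1l (0.899), Hbb-bt (0.886), Rcan3 (0.881), Nrep (0.880), Cyp11a1 (0.879) and Zdhhc12 (0.863). Most like Dcx alone were Nrm (0.920), Ogfr (0.915), Ppp1r18 (0.913) and Masp1 (0.912), and by deviations Sypl2 (0.910), Parp6 (0.892), Ogfr (0.879) and Nrm (0.863). Without those 2 arrays the r of these same genes was 0.912 to 0.940 with the mean level and 0.895 to 0.937 with Dcx, but by deviations 0.483 to 0.746 and 0.491 to 0.699. Hbb-bt and Hbb-bs are near-identical beta-globin genes, abundant in red blood cells, whose probes may share signal. Both were called lower in adult vehicle mice, Hbb-bs at -0.99 ± 0.20 (limma adjusted p = 0.0239) and Hbb-bt at -0.88 ± 0.20 (adjusted p = 0.0432). Hbb-bs lay at 10.82, 11.43, 11.08, 11.71 and 10.27 on adult cannabis arrays 1 to 5, again highest on arrays 2 and 4, and its part in the pattern was not tested.

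Other genes of young neurons were taken from a list that leaves out the 9. In vehicle mice 1 of 18 tested was called lower in adults and 0 higher, with a median log2 difference of -0.07. The gene called was Tuba1a, an alpha-tubulin of growing neurons, at -0.52 ± 0.12 (limma adjusted p = 0.0397). Map1b, a microtubule-associated protein of growing axons, stood at 0.38 ± 0.11 (adjusted p = 0.101) and Stmn2, a regulator of microtubule turnover, at -0.28 ± 0.08 (adjusted p = 0.115). Of 12 tested relatives of the 9 genes 0 were called, with a median of -0.18. Marcks, the parent member of the Marcksl1 family, came closest at -0.44 ± 0.11 (adjusted p = 0.0545), followed by the tubulins Tubb4a at -0.51 ± 0.14 and Tubb4b at -0.26 ± 0.08.

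Earlier stages of the lineage also had no gene called with age in vehicle mice. Many of these genes were dim: 8 of 18 stem and progenitor and 5 of 20 proliferation genes exceeded background on all 18 arrays. Among 12 tested stem and progenitor genes the median was -0.07, and those with the smallest p were Lpar1 at -0.66 ± 0.18 (limma adjusted p = 0.0772), Tfap2c at -0.37 ± 0.10 and Neurog2, a proneural factor, at -0.17 ± 0.06. Among 12 proliferation genes it was -0.05, led by Cdc20 at -0.16 ± 0.06 (adjusted p = 0.201). In mature granule neurons 0 of 6 genes were called, with C1ql2 at 0.32 ± 0.11 (adjusted p = 0.165) and Prox1, a granule cell identity factor, at -0.36 ± 0.14. In pyramidal neurons 0 of 12 were called, with Nptx1 at 0.45 ± 0.15.

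Glial genes of the myelin lineage moved with the same contrast. Among oligodendrocyte genes 8 of 11 tested were called lower in adult vehicle mice and 0 higher, with 10 of 11 below 0 and a median of -1.45. Mag, a myelin adhesion protein, fell by 1.54 ± 0.23 (limma adjusted p = 0.00634) and Mog by 1.45 ± 0.22 (adjusted p = 0.00634). Among precursor genes 5 of 9 were called lower, with 9 of 9 below 0, among them Bmp4 at -0.63 ± 0.11 (adjusted p = 0.0154) and Gpr17 at -1.26 ± 0.26 (adjusted p = 0.0273). The mean log2 level of the oligodendrocyte genes was 11.04 to 11.44 on P28 vehicle arrays and 9.67 to 10.41 on adult vehicle arrays. On adult cannabis arrays 1 to 5 it was 10.25, 10.69, 10.15, 10.71 and 9.86, highest on arrays 2 and 4 but below every P28 vehicle array. The part of these cells in the levels of the 9 genes was not tested. Between adult cannabis and adult vehicle mice 0 genes of any of these lists were called, at a lowest adjusted p over all probes of 0.876.

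**Figure D4:**
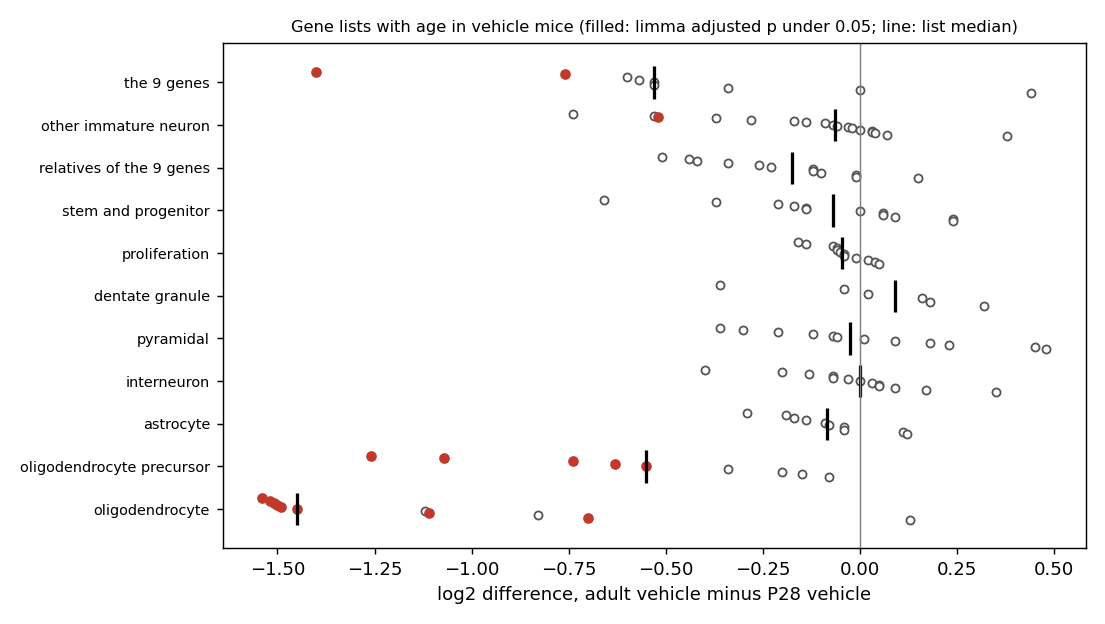
Log2 difference between adult and P28 vehicle mice (horizontal axis) for each tested gene of each list (rows), with the list's median. The 9 genes have a median of -0.53, other young neuron genes -0.07, oligodendrocyte precursor genes -0.55 and oligodendrocyte genes -1.45.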

How the data were processed

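Values are the log2 intensities of the authors' deposited value table, normalized between arrays by the authors. The submitters' processing notes name Partek, and the steps are not given in the sources used here. Other tables with 72 per-sample columns were not used, since their column names match no sample label, so the planned test on non-normalized signals was replaced by one on these values. A model of 4 group means over all 18 arrays was fitted with limma 3.58.1 under R 4.3.3. Moderated 2-sided p-values were adjusted by Benjamini-Hochberg over 18217 probes, with a threshold of 0.05 (14 residual and 3.94 prior degrees of freedom). Errors are moderated SEs, and the number of arrays limits precision.

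The background level is the mode of all values plus 3 SD. Its density bandwidth of 0.05 was settled after 7 bandwidths and a first fit of the 9 genes had been seen, because it came nearest to the level of an earlier analysis. The 7 kept 18217 to 18706 probes, and each called the same 2 genes. Symbols came from the platform annotation. Gene lists were described by counts and medians, on each gene's brightest probe. Named genes are the 9, up to 3 of each list by smallest p, and those most correlated with the 9 or with Dcx. The 9 genes and all lists were chosen with earlier results of these data known. Replicate numbers were checked for pairing: deviations of same-numbered P28 arrays correlated at 0.196, 0.339, 0.383 and 0.534. No label states a pairing, and the main fit did not use one. A block for the replicate number was run only as an alternative. Other groups had pairs below 0.1, although arrays numbered 4 correlated between the ages at 0.574 in vehicle and 0.592 in cannabis mice. The fit was tested on simulated data, where a log2 change of 0.5 in the vehicle age contrast was recovered in 77% of changed probes. That share does not carry over to the 9 genes. In the real data differences of -0.53 ± 0.13 (Dpysl5 and Tubb2b) and -0.57 ± 0.16 (Dcx) were not called in that contrast.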

Additional observations from a re-analysis of the deposited data

Results flagged for a closer look

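Sox4 lay at a log2 level of 7.57 on P28 vehicle array 4, while the other 3 arrays of the group lay between 7.89 and 7.92. The gap was 0.903 of the group's range, above Dixon's 95% critical value. It was the only such value among 36 groups of arrays tested, where chance gives about 1 in 20. Array 4 is the only array of that group numbered 4 or 5. Across the groups Sox4 was lower on arrays 4 and 5 by 0.23 ± 0.06, an estimate that includes this array.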

How the results depend on the processing

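The count of genes called between adult and P28 vehicle mice, 2 of 9 as reported beside 1.07% of all probes, depended on the settings, and so did the share of all probes called. It was 4 with a trend and robust prior (1.17% of probes), 7 with array weights (4.68%), 6 with only the groups compared (2.06%), 6 with arrays 4 and 5 against 1 to 3 as a block (2.29%) and 5 with a block for 3 sets of 6 by order of deposit (3.04%). From array weights on, these counts include Neurod2, called higher. With probes above background in all 18 arrays it was 3 (205 of 13633 probes): Marcksl1, Tubb2b and Neurod2, since Igfbpl1 is not tested there. With the mean of a gene's probes it was 3 (1.31%): Marcksl1, Igfbpl1 and Tubb2b. It was 0 with arrays 1 to 3 only (0.022%), 0 with arrays 4 and 5 only (0%) and 0 when a fold of 1.2 was tested (0.00549%). Leaving out each array in turn gave 0 to 6. No filter, normexp correction, the choroid plexus level as a covariate and 6 other background bandwidths, chosen after seeing the data, kept the count at 2. With the replicate block the count was 3 (1.98%), and in the other 4 contrasts the block called 0 genes, as the fit without it did. Without adult cannabis arrays 2 and 4, also chosen after seeing the data, the count was 7 in vehicle and 5 in cannabis mice. Apart from that setting, the other 4 contrasts called 0 genes under every alternative run. The difference of the cannabis effect between ages uses all 4 groups, so it has no value with only the groups compared. The cause of these differences between settings was not tested.

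Signs turned for small differences. Neurod1 with age in vehicle mice was -0.075 with the replicate block, -0.045 with arrays 4 and 5 as a block, -0.055 with arrays 1 to 3, -0.009 with arrays 4 and 5, -0.006 with the sets of 6 and -0.004 with normexp. At P28, Sox4 was -0.049 with array weights and -0.031 with arrays 1 to 3, and Dpysl5 was 0.014 with the choroid plexus covariate. With arrays 4 and 5 only, at P28, Dpysl5 was 0.013, Tubb2b 0.078, Dcx 0.038 and Neurod2 -0.067, and the change of Neurod2's cannabis difference with age was 0.065. Without adult cannabis arrays 2 and 4, the adult cannabis difference was -0.034 for Dpysl5, -0.029 for Tubb2b and -0.155 for Dcx, and its change with age was -0.015 for Dcx. Leaving out single arrays gave ranges across 0 for Dpysl5 (-0.078 to 0.001), Sox4 (-0.074 to 0.052) and Neurod2 (-0.002 to 0.143) at P28, and for Neurod1 between adults (-0.004 to 0.153), with age in vehicle (-0.091 to 0.071) and cannabis mice (-0.153 to 0.040), and in the change of the difference (-0.157 to 0.044).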
